A study of Mus musculus with 6 samples.

Results

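The glomerular basement membrane is the sheet of extracellular matrix between the endothelium and the podocytes of the kidney's filter. The 10 genes described here encode its main structural parts: the type IV collagen chains Col4a1, Col4a2, Col4a3, Col4a4 and Col4a5, the laminin chains Lama5, Lamb2 and Lamc1, and the heparan sulfate proteoglycans agrin (Agrn) and perlecan (Hspg2). They were taken by name, and all 10 were found among the 18822 genes with a value. RNA was sequenced from isolated renal glomeruli of C57BL/6J mice in 6 libraries, 3 from PR3 knockout mice (PR3 KO) and 3 from wild-type mice (WT). Mice of both genotypes had diabetic kidney disease, so the genotypes are compared within disease and no healthy mouse enters. PR3 is proteinase 3, the product of Prtn3 and a protease that neutrophils store in their granules, and the design asks how glomerular gene expression differs in its absence. The sources used here do not give how diabetes was induced, the age of the mice or the way the knockout was made. The labels do not say that each library is a separate animal, so p-values measure the spread between these samples only, which may be technical.

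Type IV collagen is built from triple helices that join end to end into a network. In the mature glomerular basement membrane the network consists of the alpha3, alpha4 and alpha5 chains, which come from podocytes. The alpha1 and alpha2 chains form the network of the embryonic membrane and, in the adult, of the mesangial matrix and the endothelial side, and mesangial and endothelial cells express them. Laminin of the alpha5, beta2 and gamma1 chains is the membrane's adult laminin and is deposited from both its endothelial and its podocyte side. Agrin carries most of the heparan sulfate of the mature membrane, whereas perlecan is abundant in mesangial and vascular basement membranes. Loss of an alpha3, alpha4 or alpha5 chain causes Alport syndrome, and loss of the laminin beta2 chain causes Pierson syndrome.

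The type IV collagen genes lie head to head in pairs, and the starts of the pairs measured here are shown because the members of each pair had nearly the same profile over the 6 libraries. Col4a1 lies on the minus strand of chromosome 8 from 11198423 to 11312889, and Col4a2 on the plus strand from 11312805 to 11449287, so their annotated ends overlap by 85 bp (GRCm38.p6, RefSeq). Col4a4 lies on the minus strand of chromosome 1 from 82448419 to 82587034 and Col4a3 on the plus strand from 82586921 to 82722059, with an overlap of 114 bp. The RefSeq promoter windows below run 5′ to 3′ on the gene's strand at chr8:11312777-11313076 for Col4a1, chr8:11312555-11312854 for Col4a2 and chr1:82586800-82587099 for Col4a4. Capitals mark each match to CCAAT or GGGCGG on either strand.
Col4a1: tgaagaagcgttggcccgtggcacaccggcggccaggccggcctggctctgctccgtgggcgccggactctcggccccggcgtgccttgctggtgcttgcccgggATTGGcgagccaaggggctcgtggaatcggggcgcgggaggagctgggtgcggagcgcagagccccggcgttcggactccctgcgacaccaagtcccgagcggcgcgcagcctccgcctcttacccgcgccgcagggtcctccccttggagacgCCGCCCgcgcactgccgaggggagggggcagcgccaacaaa
Col4a2: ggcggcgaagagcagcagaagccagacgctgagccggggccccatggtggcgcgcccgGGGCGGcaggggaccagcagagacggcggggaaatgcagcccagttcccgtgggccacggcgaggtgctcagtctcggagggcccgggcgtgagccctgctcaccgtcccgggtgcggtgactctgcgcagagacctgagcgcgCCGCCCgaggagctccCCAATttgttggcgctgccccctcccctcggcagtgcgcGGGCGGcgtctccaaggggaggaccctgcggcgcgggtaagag
Col4a4: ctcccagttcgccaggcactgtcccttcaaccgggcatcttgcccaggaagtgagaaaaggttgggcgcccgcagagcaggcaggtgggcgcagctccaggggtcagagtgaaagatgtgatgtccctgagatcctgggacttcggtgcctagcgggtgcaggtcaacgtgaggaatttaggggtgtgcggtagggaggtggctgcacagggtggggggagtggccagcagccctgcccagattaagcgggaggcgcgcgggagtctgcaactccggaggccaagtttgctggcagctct
The Col4a1 and Col4a2 windows share 78 bp, read on opposite strands. The Col4a1 window held 1 CCAAT match and 1 GGGCGG match, and the Col4a2 window held 1 and 3. The GGGCGG match of the Col4a1 window lies in the shared bases and is the same site as 1 of the 3 in the Col4a2 window. Of all 32817 promoter windows of this length, 37.4% held CCAAT and 35.6% held GGGCGG. The Col4a4 window, which contains the annotated start of Col4a3, held neither. No window of these 3 held TATAAA, which 13.6% of all windows did. The match is a description of the letters in these windows and not of binding.

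The other members lie apart from each other. Col4a5 is on the plus strand of the X chromosome from 141475370 to 141689236, and the start of its neighbour Col4a6 is 1274 bp away on the other strand. Lama5 is on the minus strand of chromosome 2 (180176373 to 180225904), Lamb2 on the plus strand of chromosome 9 (108479847 to 108490530) and Lamc1 on the minus strand of chromosome 1 (153218922 to 153332786). Agrn is on the minus strand of chromosome 4 (156165290 to 156197533) and Hspg2 on the plus strand of the same chromosome (137468751 to 137570630). Hspg2 has 97 exons in its longest coding transcript and Lamc1 has 28 (GENCODE). In that annotation Col4a1 and Col4a2 share 22 exonic bases on opposite strands, 0.29% of the exonic bases of Col4a1, and 5.65% of the exonic bases of Col4a3 are shared with the antisense transcript C430014B12Rik. The sources used here do not say whether strand was used in counting, and reads from such bases cannot be told apart.

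Values are FPKM, fragments per kilobase of transcript relative to all mapped fragments of the library, so levels can be compared between genes per length. Prtn3 itself was at 0.14, 0 and 0.07 FPKM in PR3 KO 1, 2 and 3, against 0.46, 0.21 and 0.22 FPKM in WT 1, 2 and 3, which is too low to be more than a weak check of the labels (p = 0.1 by an exact two-sided permutation test, which goes no lower with 3 libraries a genotype). The FPKM of a library summed to 566772 to 604697 in PR3 KO and 494316 to 543564 in WT, and the lowest steps of the values put the depth near 13200000 to 15100000 fragments. Spearman correlations between libraries were 0.986 to 0.988 within PR3 KO, 0.967 to 0.988 within WT, and lower, at 0.882 to 0.961, for libraries of different genotype. The median log2 fold change of all 12388 tested genes was -0.26, PR3 KO minus WT, so the fold changes of the 10 genes are also given after median-of-ratios scaling, which brought that median to 0.03. For other named genes the scaled value is given where scaling ended the call or turned the direction. The scaling factors were 0.861, 0.93 and 0.906 for PR3 KO 1, 2 and 3 and 1.102, 1.205 and 1.086 for WT 1, 2 and 3.

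Of the 10 genes, 5 fell in PR3 KO and 5 did not pass the test (limma on log2(FPKM + 1), Benjamini-Hochberg adjusted p under 0.05 over all tested genes). Col4a1, Col4a2, Lamb2, Lamc1 and Hspg2 fell, while Col4a3, Col4a4, Col4a5, Lama5 and Agrn did not pass. Of all 12388 tested genes 52.8% passed, 41.1% as lower and 11.7% as higher in PR3 KO. The count of 5 of 10 is thus near the background and is no result about the 10 genes as a group. The same 5 had every PR3 KO library below every WT library, which 49.1% of all tested genes had, and none had every PR3 KO library above, against 16.0% of all. None of the 10 rose by limma, and none was higher at an unadjusted p under 0.05 either. The median of the 10 fold changes was -0.43, beside -0.26 for all tested genes. With the scaling, 2 fell (Lamc1 and Hspg2) and 2 rose (Col4a3 and Col4a4), beside 22.2% and 25.6% of all genes tested then, or 47.8% in either direction. What differed among the 10 genes was the order, with Hspg2 and Lamc1 lowest and Col4a3 and Col4a4 highest under both scalings.

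**Figure D1:**
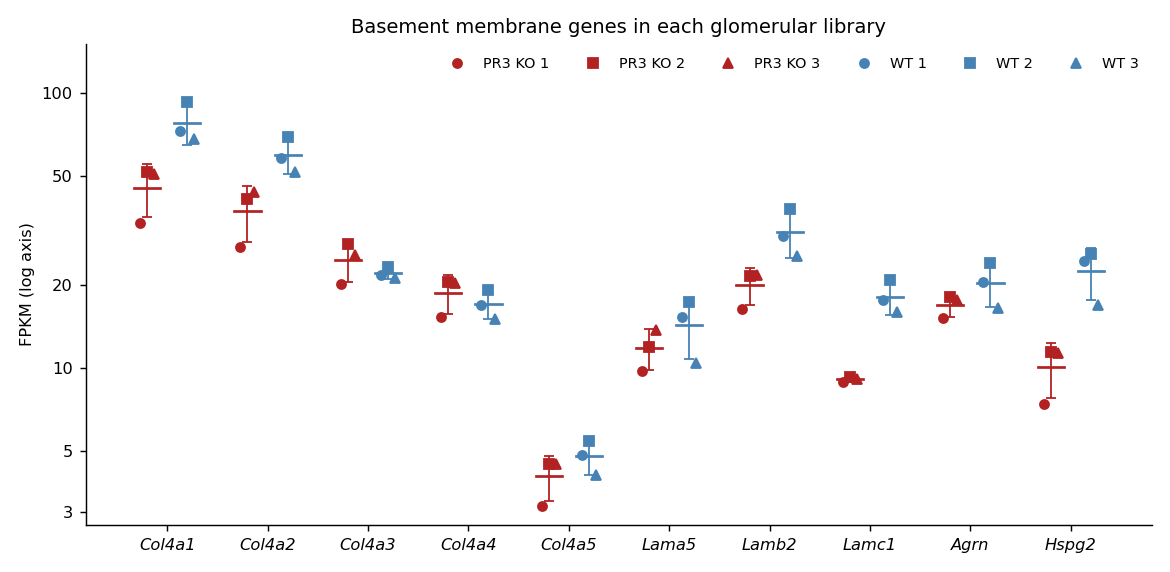
FPKM on a log axis of the 10 basement membrane genes in each library (PR3 KO in red, left; WT in blue, right; the symbol gives the library number; horizontal lines are means and bars are SD, n = 3 per genotype). For Col4a1, Col4a2, Lamb2, Lamc1 and Hspg2 all PR3 KO points lie below all WT points, and for the other 5 genes the groups overlap.

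The chains of the embryonic and mesangial network were the most abundant members. Col4a1 was at 33.7, 51.3 and 50.7 FPKM in PR3 KO 1, 2 and 3, against 72.5, 92.3 and 67.6 FPKM in WT 1, 2 and 3. The groups did not overlap, PR3 KO 1 was the lowest library and WT 2 the highest. Its mean was 45.2 ± 9.98 FPKM in PR3 KO and 77.5 ± 13.1 FPKM in WT (SD, n = 3 each), a log2 fold change of -0.78 (SE 0.19, limma adjusted p = 0.0111). Col4a2, its partner in the same helix, was at 27.6, 40.9 and 43.4 FPKM in PR3 KO, against 58.0, 69.0 and 51.3 FPKM in WT, also without overlap. Col4a2 fell by 0.67 on the log2 scale (SE 0.19, limma adjusted p = 0.0179). After scaling neither was past the threshold, at -0.45 for Col4a1 (limma adjusted p = 0.0562) and -0.35 for Col4a2 (limma adjusted p = 0.113).

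The chains of the mature network behaved otherwise. Col4a3 was at 20.2, 28.2 and 25.6 FPKM in PR3 KO 1, 2 and 3, against 21.9, 23.3 and 21.3 FPKM in WT 1, 2 and 3. PR3 KO 1 was below every WT library and the other two PR3 KO libraries were above them. The log2 fold change was 0.14, with a 95% confidence interval of -0.16 to 0.44 (limma adjusted p = 0.383). Col4a4 was at 15.3, 20.6 and 20.3 FPKM in PR3 KO, against 17.0, 19.1 and 15.1 FPKM in WT, with the same order of libraries within PR3 KO. Its log2 fold change was 0.12 (-0.20 to 0.44, limma adjusted p = 0.492). After scaling both rose, Col4a3 by 0.46 (0.20 to 0.71, limma adjusted p = 0.0132) and Col4a4 by 0.43 (0.16 to 0.70, limma adjusted p = 0.0182). With library sums made equal instead, they were at -0.02 and -0.04, so the direction of this pair depends on the scaling. Col4a5, the chain shared by the mature network and that of Bowman's capsule, was the least abundant member at 3.17, 4.50 and 4.49 FPKM in PR3 KO, against 4.86, 5.44 and 4.08 FPKM in WT. The groups overlapped, and the log2 fold change of -0.20 did not pass (-0.55 to 0.15, limma adjusted p = 0.286). After scaling Col4a5 was at 0.07.

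**Figure D2:**
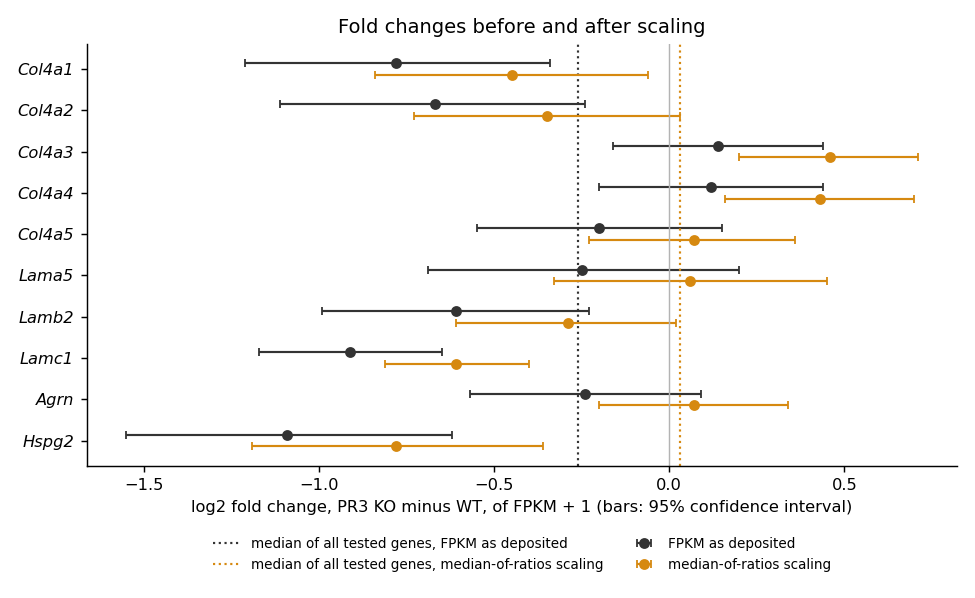
Log2 fold changes of FPKM + 1, PR3 KO minus WT, with 95% confidence intervals from limma, for FPKM as deposited (dark) and after median-of-ratios scaling (orange). Dotted lines mark the medians of all tested genes, -0.26 and 0.03. The intervals of Hspg2, Lamc1 and Col4a1 lie below zero under both, and those of Col4a2 and Lamb2 only as deposited. Col4a3 and Col4a4 lie above zero with intervals that exclude it after scaling only. Intervals are not adjusted for the number of genes, and Col4a1 did not pass after scaling (limma adjusted p = 0.0562).

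The chains of the adult laminin did not move alike. Lamc1, the gamma1 chain present in most laminins, was at 8.90, 9.32 and 9.14 FPKM in PR3 KO 1, 2 and 3, against 17.6, 20.9 and 15.9 FPKM in WT 1, 2 and 3. The PR3 KO libraries lay close to each other and below the lowest WT library. Lamc1 had a mean of 9.12 ± 0.211 FPKM in PR3 KO and 18.1 ± 2.52 FPKM in WT (SD, n = 3 each), and fell by 0.91 on the log2 scale (SE 0.11, limma adjusted p = 0.000982), or by 0.61 after scaling (limma adjusted p = 0.00277). Lamb2, the beta2 chain that replaces beta1 as the membrane matures, was at 16.5, 21.7 and 21.8 FPKM in PR3 KO, against 30.3, 37.7 and 25.6 FPKM in WT, without overlap. Lamb2 fell by 0.61 (SE 0.16, limma adjusted p = 0.0161). That call was lost after scaling (-0.29, limma adjusted p = 0.11) and without PR3 KO 1 (-0.48, limma adjusted p = 0.0549). Lama5, the alpha5 chain, was at 9.76, 11.9 and 13.8 FPKM in PR3 KO, against 15.3, 17.3 and 10.5 FPKM in WT. WT 3 lay among the PR3 KO libraries, and the log2 fold change of -0.25 did not pass (-0.69 to 0.20, limma adjusted p = 0.304).

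The heparan sulfate proteoglycans also differed. Hspg2 was at 7.41, 11.4 and 11.4 FPKM in PR3 KO 1, 2 and 3, against 24.6, 25.9 and 17.0 FPKM in WT 1, 2 and 3. All PR3 KO libraries were below all WT libraries, and the mean was 10.1 ± 2.31 FPKM in PR3 KO and 22.5 ± 4.77 FPKM in WT (SD, n = 3 each). Hspg2 had the largest fall of the 10 genes, by 1.09 on the log2 scale (SE 0.20, limma adjusted p = 0.0039), or by 0.78 after scaling (limma adjusted p = 0.0107). Of all tested genes, 8.15% had a lower fold change. Agrn was at 15.2, 18.1 and 17.7 FPKM in PR3 KO, against 20.6, 24.2 and 16.5 FPKM in WT. Here WT 3 lay between the PR3 KO libraries, and the log2 fold change was -0.24 (-0.57 to 0.09, limma adjusted p = 0.185), or 0.07 after scaling. Agrn passed when WT 3 was left out (-0.38, limma adjusted p = 0.0479).

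Within a genotype the 10 genes varied together from library to library. PR3 KO 1 had the lowest value of its genotype for all 10, and WT 2 had the highest of its genotype for all 10, while WT 3 had the lowest WT value for all 10. The summed FPKM of the 10 genes was 158, 218 and 218 in PR3 KO 1, 2 and 3, against 283, 335 and 245 in WT 1, 2 and 3. Col4a1 and Col4a2 made up 38.9% to 43.1% of that sum in PR3 KO and 46.2% to 48.6% in WT, and Col4a3, Col4a4 and Col4a5 made up 23.1% to 24.5% in PR3 KO and 14.3% to 16.5% in WT. The laminin chains took a similar part, 19.7% to 22.3% in PR3 KO and 21.2% to 22.7% in WT. PR3 KO 1 and WT 2 were also the libraries with the lowest and the highest scaling factor over all genes, at 0.861 and 1.205. WT 3 had the lowest factor of WT, at 1.086. The share of all genes with this order of libraries was not computed, so the order is not shown to be particular to the 10 genes.

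The order of levels differed between genotypes in the middle of the range. Col4a1 and then Col4a2 stood first in every library, and Col4a5 stood last. In PR3 KO Col4a3 was the third member and exceeded Lamb2 in every library, whereas in WT Lamb2 was the third. Hspg2 was the eighth in PR3 KO, where its range overlapped that of Lamc1, and the fourth in WT, where its range overlapped that of Col4a3. The neighbours Lamb2, Col4a4 and Agrn in PR3 KO, and Col4a3, Agrn and Lamc1 in WT, had overlapping ranges.

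Ratios within a library do not depend on how the library was scaled. Col4a3 over Col4a1, a chain of the mature network over one of the embryonic and mesangial network, was 0.600, 0.549 and 0.506 in PR3 KO 1, 2 and 3, against 0.301, 0.253 and 0.315 in WT 1, 2 and 3. The groups did not overlap and the log2 ratio was higher in PR3 KO by 0.93, with a mean of -0.86 ± 0.12 in PR3 KO and -1.79 ± 0.17 in WT (SD, n = 3 each, exact two-sided permutation p = 0.1, the smallest possible). Col4a5 over Col4a1 was 0.0940, 0.0877 and 0.0886 in PR3 KO, against 0.0670, 0.0590 and 0.0604 in WT, a log2 difference of 0.54. Both ratios within a gene pair stayed close between genotypes. Col4a1 over Col4a2 was 1.17 to 1.25 in PR3 KO and 1.25 to 1.34 in WT (log2 difference -0.10, exact two-sided permutation p = 0.2), and Col4a3 over Col4a4 was 1.26 to 1.37 in PR3 KO and 1.22 to 1.41 in WT (0.02, exact two-sided permutation p = 0.8). Differences of up to the spread between libraries are not detectable with 3 against 3.

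Among the laminin chains, Lama5 over Lamc1 was 1.10, 1.28 and 1.51 in PR3 KO 1, 2 and 3, against 0.868, 0.830 and 0.656 in WT 1, 2 and 3. Lama5 thus exceeded Lamc1 per length in every PR3 KO library and in no WT library. Lamb2 over Lamc1 was 1.85, 2.32 and 2.39 in PR3 KO, against 1.72, 1.81 and 1.61 in WT, with PR3 KO 1 only just above WT 2. Agrn over Hspg2 was 2.05, 1.58 and 1.55 in PR3 KO, against 0.838, 0.935 and 0.972 in WT. By FPKM, Agrn was therefore above Hspg2 in every PR3 KO library and below it in every WT library, where the ratios were close to 1. On which side of 1 a ratio of 2 genes falls depends on the transcript lengths used for FPKM, which were not given. The 3 log2 ratios with Lamc1 or Hspg2 below were higher in PR3 KO by 0.72, 0.35 and 0.91, each without overlap and each with an exact two-sided permutation p of 0.1. Over the 7 ratios compared, the Benjamini-Hochberg adjusted value of the 5 at that limit was 0.14. Each of these 5 has Col4a1, Lamc1 or Hspg2 below, genes that fell, so they largely restate those falls. The share of other gene pairs whose ratios do not overlap was not computed. Of single genes, 49.1% had every PR3 KO library below every WT library and 16.0% above, so the lack of overlap is not shown to be particular to these ratios.

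**Figure D3:**
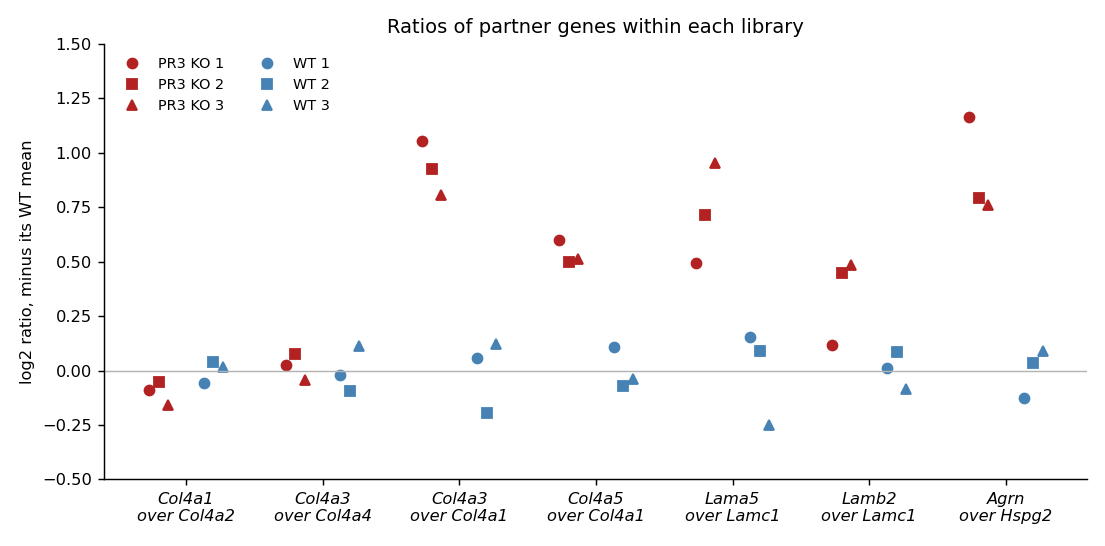
Log2 of the ratio of FPKM of partner genes in each library, shown as the difference from the mean of the WT libraries (PR3 KO in red, left; WT in blue, right; the symbol gives the library number). The ratios of the gene pairs, Col4a1 over Col4a2 and Col4a3 over Col4a4, overlap between genotypes, and the other 5 ratios are higher in all PR3 KO libraries. The gene below in each of those 5 (Col4a1, Lamc1 or Hspg2) fell, and ratios of other gene pairs were not computed.

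The likeness of 2 profiles was measured as the root mean square difference over the 6 libraries of log2(FPKM + 1), centred on each gene's mean. Among the 10 genes, Col4a1 and Col4a2 were each other's nearest, at 0.066, as were Col4a3 and Col4a4, also at 0.066. Col4a5 and Agrn were each other's nearest at 0.081, and Lamc1 and Hspg2 were the farthest from any other, at 0.194 and 0.195 from Col4a1. These distances are descriptions over the 6 libraries of both genotypes and include the difference between genotypes. Closer genes outside the group were found for each of the 10. For Col4a1 the nearest genes outside the group were Unc5b at 0.045 and the basement membrane collagen gene Col18a1 at 0.047, and for Col4a2 they were Gins2 at 0.042 and Slc12a2 at 0.060. Vsig10l at 0.049 and Ss18l1 at 0.063 were nearest to Col4a3, and Inppl1 at 0.045 and Ss18l1 at 0.051 to Col4a4. Khnyn and Dnmbp were nearest to Col4a5 (0.026 and 0.032), Sntb2 and Lhfpl2 to Lama5 (0.042 and 0.058), and Bmp1 and Soga1 to Lamb2 (0.021 and 0.033). The kinase gene Tbk1 and the laminin receptor gene Itga6 were nearest to Lamc1 (0.034 and 0.037), Eif2ak4 and Prr12 to Agrn (0.026 and 0.030), and Pcdh12 and Plxnd1 to Hspg2 (0.056 and 0.081).

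Of 24 other components of basement membranes 14 were tested, and of these 9 fell and 1 rose, beside 41.1% and 11.7% of all tested genes, with a median log2 fold change of -0.61 beside -0.26 for all tested genes. After scaling 7 fell and 3 rose, beside 22.2% and 25.6% of all. Sparc, which encodes a collagen-binding matrix protein, was at 194 ± 38.3 FPKM in PR3 KO and 446 ± 62.5 FPKM in WT (SD, n = 3 each) and fell by 1.21 (limma adjusted p = 0.00182). Col15a1, a collagen of vascular basement membranes, was at 4.97, 9.28 and 9.28 FPKM in PR3 KO, against 23.4, 21.5 and 17.7 FPKM in WT, and fell by 1.34 (limma adjusted p = 0.00243). Tinagl1, a matrix protein gene of the tubulointerstitial nephritis antigen family, and Lama4, the laminin chain of endothelial basement membranes, fell by 0.97 and 0.91 (limma adjusted p = 0.00327 and 0.00395). These 4 also fell after scaling.

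The laminin alpha1 chain went the other way. Lama1, which the early glomerular basement membrane contains before alpha5 replaces it, was at 1.62, 1.76 and 2.19 FPKM in PR3 KO, against 1.09, 0.67 and 0.72 FPKM in WT, and rose by 0.65 (SE 0.15, limma adjusted p = 0.00816). Its levels were near the filter of a mean of 1 FPKM, and which cells Lama1 came from was not tested. Lama1 was the 1 member of that list to rise as deposited and is named after its value was seen. Tinag and Fras1, also named after their values were seen, had every PR3 KO library above every WT library, as 16.0% of all tested genes had. They did not pass as deposited (limma adjusted p = 0.162 and 0.053) and rose after scaling, by 0.65 and 0.61 (limma adjusted p = 0.0413 and 0.0141). Nid1 and Nid2, the nidogens that link laminin to type IV collagen, and Col18a1 are also named after their values were seen, with falls of 1.01, 0.56 and 0.81 (limma adjusted p = 0.00785, 0.0212 and 0.00708). The call of Nid2 was lost after scaling (-0.27, limma adjusted p = 0.135). Lamb1, the beta chain of the immature membrane, was at 15.9 ± 1.27 FPKM in PR3 KO and 20.9 ± 5.87 FPKM in WT (SD, n = 3 each) and did not pass (-0.34, limma adjusted p = 0.16). Col4a6, the neighbour of Col4a5, was below the expression filter at 0.26 to 0.28 FPKM in PR3 KO and 0.28 to 0.56 FPKM in WT and had no test.

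Of 14 receptors of these matrix proteins 13 were tested, of which 6 fell and 2 rose, with a median of -0.41. These counts are near the 41.1% and 11.7% of all tested genes. After scaling 2 fell and 2 rose, beside 22.2% and 25.6% of all genes tested then. Without PR3 KO 1 or without PR3 KO 3, 3 fell and 1 rose. Fewer of all genes were called then as well, 3873 and 4155 as lower, against 5091 with all libraries. Itga6 and Itgb1, subunits of laminin-binding integrins, were at 14.5 ± 0.915 and 95.9 ± 15.0 FPKM in PR3 KO and at 27.8 ± 4.02 and 195.6 ± 26.7 FPKM in WT (SD, n = 3 each). They fell by 0.89 and 1.02 (limma adjusted p = 0.0012 and 0.00192), and these 2 calls held after scaling. Bcam, a receptor of the laminin alpha5 chain, fell by 0.68 (limma adjusted p = 0.0108), and not after scaling (-0.35, limma adjusted p = 0.0842). Itga3, the subunit that pairs with Itgb1 in the main laminin receptor of podocytes, is named after its value was seen: it fell by 0.59 (limma adjusted p = 0.0156), and was at -0.26 after scaling (limma adjusted p = 0.131). Ddr1, a collagen receptor kinase of epithelia, was at 40.0, 44.7 and 37.8 FPKM in PR3 KO, against 32.2, 31.2 and 25.4 FPKM in WT, and rose by 0.45 (limma adjusted p = 0.0151). The other gene that rose was Lrp4, a receptor for agrin at the neuromuscular junction, named after its value was seen (0.57, limma adjusted p = 0.0296). The call of Ddr1 was lost without PR3 KO 2 (0.39, limma adjusted p = 0.0561) and with equal library sums (0.30, limma adjusted p = 0.101).

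Of 22 enzymes and chaperones that make collagen 18 were tested, of which 9 fell and 9 did not pass, with a median of -0.41. This is near the 41.1% of all tested genes that fell, and 1 was higher at an unadjusted p under 0.05. After scaling 7 fell and 2 rose, beside 22.2% and 25.6% of all genes tested then. Pxdn, the peroxidase that cross-links the type IV collagen network, was at 9.65, 13.4 and 12.7 FPKM in PR3 KO, against 25.7, 23.3 and 22.3 FPKM in WT. It fell by 0.95 (SE 0.13, limma adjusted p = 0.00127). Serpinh1, the collagen chaperone of the endoplasmic reticulum, was at 36.9, 52.1 and 45.3 FPKM in PR3 KO, against 88.0, 93.9 and 83.3 FPKM in WT, and fell by 0.98 (SE 0.14, limma adjusted p = 0.00138). The collagen galactosyltransferase genes Colgalt1 and Colgalt2 fell by 0.71 and 0.80 (limma adjusted p = 0.00235 and 0.0051). All 4 also fell after scaling. Without PR3 KO 1 the number that fell was 5, and that of all genes was 3873, against 5091 with all libraries.

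Heparan sulfate is the sugar chain carried by agrin and perlecan. Of 21 listed enzymes that make or edit it 19 were tested, of which 5 fell, 1 rose and 13 did not pass, beside 41.1% of all tested genes that fell and 11.7% that rose, and the median of -0.22 was close to that of all genes. After scaling 1 fell and 4 rose, beside 22.2% and 25.6% of all genes tested then. Without PR3 KO 1, 2 fell, and without PR3 KO 2, PR3 KO 3 or WT 2, 3 fell. Fewer of all genes fell in these settings as well, 3873 to 4464 against 5091 with all libraries. Hs6st1, which adds 6-O-sulfate groups, was at 31.7, 42.2 and 41.2 FPKM in PR3 KO, against 27.7, 24.6 and 23.6 FPKM in WT, and rose by 0.58 (SE 0.13, limma adjusted p = 0.00835). Hs2st1, which adds 2-O-sulfate groups, and B3galt6, which builds the linker of the chain, fell by 0.48 and 0.46 (limma adjusted p = 0.0135 and 0.0164), and neither passed after scaling (-0.21 and -0.26, limma adjusted p = 0.12 and 0.0954). Hpse, the heparanase that cuts the chains, was at 0.63, 0.58 and 0.70 FPKM in PR3 KO, against 1.33, 4.56 and 2.07 FPKM in WT, with WT 2 the highest, and fell by 1.06 (SE 0.29, limma adjusted p = 0.0169). Without PR3 KO 1 that call was lost at -1.06 (limma adjusted p = 0.0535), as was that of B3galt6 without PR3 KO 2 (-0.42, limma adjusted p = 0.0571).

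**Figure D4:**
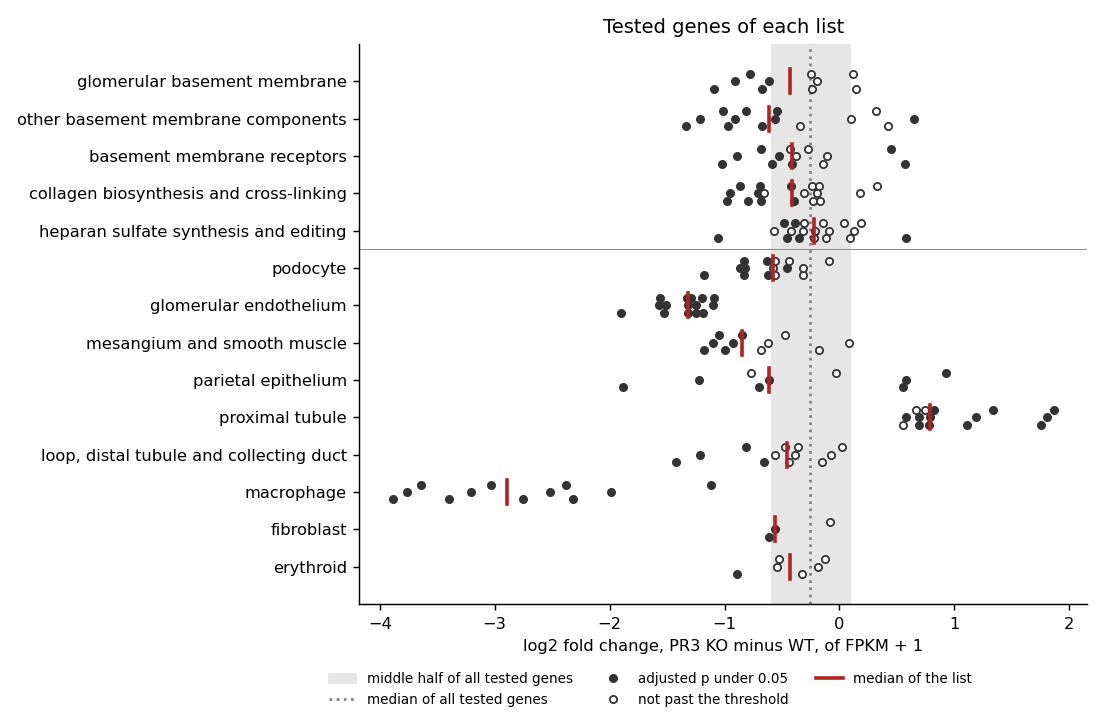
Log2 fold changes of FPKM + 1, PR3 KO minus WT, of the tested genes of each list (1 point a gene; filled, limma adjusted p under 0.05; red line, median of the list), with the basement membrane lists above the grey line and cell type markers below it. The dotted line and grey band give the median and the 25th to 75th percentile of all tested genes; all endothelial and macrophage markers lie on the lower side and the proximal tubule markers on the higher side.

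Markers of the cell types that make the membrane, and of other cells in the preparation, were read beside these results, against 41.1% of all tested genes that fell and 11.7% that rose, or 22.2% and 25.6% after scaling. None of the podocyte, endothelial and mesangial markers was at 0 in any library, and those that passed the expression filter were present in all. Cnn1 of the mesangial list was below the filter, at 0.05 FPKM in PR3 KO 1 and WT 1, too low to be called present. The 15 markers of glomerular endothelium all fell, with a median of -1.32, and their summed FPKM was 941 to 1305 in PR3 KO and 2600.4 to 3189.7 in WT. All 15 also fell after scaling, whereas 3 podocyte and 4 mesangial markers did. Ehd3, a marker of glomerular capillaries, was at 222 ± 46.7 FPKM in PR3 KO and 501 ± 8.41 FPKM in WT, and Emcn, the endothelial sialomucin, was at 336 ± 55.9 FPKM in PR3 KO and 801 ± 121 FPKM in WT (SD, n = 3 each). Of 11 tested mesangial and smooth muscle markers 6 fell and 5 did not pass, with a median of -0.85 and sums of 120.1 to 194 in PR3 KO and 214 to 359 in WT. Des, the intermediate filament desmin, fell by 0.93 (limma adjusted p = 0.0197), and Ren1, the renin gene, did not pass (-0.68, limma adjusted p = 0.0691). The call of Des was lost after scaling (-0.62, limma adjusted p = 0.0567), without PR3 KO 1 (-0.76, limma adjusted p = 0.0756) or PR3 KO 3 (-0.89, limma adjusted p = 0.0579), and Ren1 passed with equal library sums (-0.85, limma adjusted p = 0.0357), without PR3 KO 2 (-0.95, limma adjusted p = 0.0147) or WT 1 (-0.89, limma adjusted p = 0.0292). Of 15 podocyte markers 8 fell and 7 did not pass, with a median of -0.58 and sums of 522 to 780.2 in PR3 KO and 882 to 1361 in WT. Podxl, the podocyte sialomucin, and Actn4, an actin cross-linker, fell by 0.83 and 0.46 (limma adjusted p = 0.0102 and 0.026), and neither passed after scaling (-0.50 and -0.13, limma adjusted p = 0.0539 and 0.443). Actn4 also did not pass without PR3 KO 1 (-0.38, limma adjusted p = 0.0987) or PR3 KO 3 (-0.48, limma adjusted p = 0.0677). In bulk RNA, fewer cells of a type and less RNA per cell cannot be told apart.

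Markers of cells outside the glomerular tuft differed as well. Of 15 proximal tubule markers 12 rose and 3 did not pass, with a median of 0.79 and sums of 11581 to 13288 in PR3 KO and 4340.2 to 7600.5 in WT. Slc34a1, the phosphate transporter of that segment, was at 3108 ± 97.1 FPKM in PR3 KO and 1471 ± 392 FPKM in WT, and Pck1, an enzyme of glucose synthesis, rose by 1.81 (limma adjusted p = 0.00211). All 12 macrophage markers fell, with a median of -2.89 and sums of 96.4 to 149 in PR3 KO and 665 to 1407 in WT. Lyz2 and Ctss, a lysozyme and a lysosomal protease, fell, Lyz2 at -2.75 (limma adjusted p = 0.000814) and Ctss at -3.40 (limma adjusted p = 0.000838). Among 9 parietal epithelium markers, of which Pax2, Pax8, Krt8 and Krt18 are also expressed in tubules, 4 fell and 3 rose, with a median of -0.61, and 3 fell and 3 rose after scaling. Krt8 rose by 0.93 and Pax8 by 0.55 (limma adjusted p = 0.000776 and 0.0145). The 4 that fell, named after their values were seen, were Cd44 (-1.88), Akap12 (-1.22), Krt18 (-0.70) and Ncam1 (-0.61), and the call of Krt18 was lost after scaling (-0.40, limma adjusted p = 0.104). Which cells the RNA of these 4 came from was not tested, so their falls cannot be assigned to parietal cells. Of 12 markers of the loop, distal tubule and collecting duct 4 fell, or 1 after scaling, and Umod and Slc12a3 did not pass (-0.47 and -0.39, limma adjusted p = 0.125 and 0.263). Fibroblast markers were low, with sums of 7.92 to 12.3 in PR3 KO and 12.7 to 19.4 in WT; of 3 tested Col1a2 was 1 of 2 that fell (-0.61, limma adjusted p = 0.0284), and Pdgfra did not pass (-0.08, or 0.17 after scaling, limma adjusted p = 0.78 and 0.471). After scaling neither of the 2 that fell passed, with Col1a2 at -0.32 (limma adjusted p = 0.133). Of 6 erythroid genes 1 fell, and the globin genes Hba-a1 and Hbb-bs did not pass (-0.54 and -0.19, limma adjusted p = 0.378 and 0.751), and Hbb-bs was at 0.14 after scaling. Without PR3 KO 1 the calls of Pax8 (0.47, limma adjusted p = 0.0532) and Col1a2 (-0.47, limma adjusted p = 0.0925) were lost, and that of Col1a2 also without PR3 KO 3 (-0.59, limma adjusted p = 0.0767), WT 2 (-0.46, limma adjusted p = 0.0616) or WT 3 (-0.66, limma adjusted p = 0.0548). Both globin genes passed as lower without PR3 KO 2, at -1.18 for Hba-a1 and -0.80 for Hbb-bs (limma adjusted p = 0.00377 and 0.01), and Slc12a3 passed without WT 3 (-0.68, limma adjusted p = 0.0459). After scaling 14 of the 15 proximal tubule markers rose and all 12 macrophage markers fell. The part of these markers in the values of the basement membrane genes was not tested.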

How the data were processed

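Per the labels' protocols, Trizol was used to extract RNA of isolated glomeruli, oligo(dT) beads captured the mRNA, and the platform was DNBSEQ. Bowtie2 and the mouse build GRCm38.p6 are named in the submitters' processing notes; the quantification tool, versions, annotation and use of strand were not given in the sources used here. The authors deposited FPKM to 2 decimals, per the file headers, and no counts were used here.

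Of 22064 Entrez gene IDs, 3242 were empty in every library, which left 18822 genes, of which 18770 matched a RefSeq symbol of GRCm38.p6. Among 74 olfactory receptor genes of at most 1200 bp (median 948), the most common value above 0 was 0.07 FPKM, or 0.08 FPKM in WT 1, in 4 to 8 genes a library. Read as 1 fragment, this gave the depth, a rough estimate.

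The test was limma 3.58.1 with statmod 1.5.0 (R 4.3.3) on log2(FPKM + 1), for 12388 genes whose mean over the 6 libraries reached 1 FPKM, genotype as the only term, with trend and robust moderation and Benjamini-Hochberg adjustment over all of them. Fold changes are PR3 KO minus WT on that scale, which understates the change of low genes, and intervals are limma's 95% intervals. Ratios were compared by exact permutation of the 6 libraries. Alternatives were median-of-ratios scaling, equal library sums, a pseudocount of 0.1, no filter or a mean of 5 FPKM, neither trend nor robust moderation, a replicate block and leaving out each library. Named genes were the 10 members, up to 4 called members of each pathway list with the smallest adjusted p, the 2 most abundant of each marker list, and the 2 nearest profiles for each member. The members and lists were chosen with earlier results of these data known. Python 3.11.15, pandas 2.3.3, numpy 2.4.6, scipy 1.17.1 and matplotlib 3.10.9 were used. Promoter windows came from RefSeq (GRCm38.p6), with Col4a1, Col4a2, Col4a4, Col4a5, Lama5, Lamb2, Agrn and Hspg2 found in the table, and strand and exons from GENCODE M21 (GRCm38).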

Additional observations from a re-analysis of the deposited data

How the results depend on the processing

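Hspg2 and Lamc1 kept their call in all 14 alternatives. Median-of-ratios scaling left 2 of the 10 genes lower and made 2 higher, and over all genes 2742 lower and 3158 higher (5091 and 1454 as deposited, 6664 lower with equal sums); with the replicate number as a block as well, chosen after seeing the data, these were 3 and 2, and 2673 and 3255. Equal library sums gave 928 higher genes. Leaving out 1 library gave 4 to 6 lower and no higher member, 3873 to 4731 lower genes and 916 to 1518 higher ones, with 916 without PR3 KO 1 and 936 without PR3 KO 3. The direction of genes that had not passed turned for Col4a3 and Col4a4 with equal sums (-0.02 and -0.04), and with scaling, with or without the block, for Col4a5 (0.07), Lama5 (0.06), Agrn (0.07), Pdgfra (0.17) and Hbb-bs (0.14). Leaving out 1 library put Pdgfra between -0.25 and 0.13 (above 0 without PR3 KO 1 or WT 2) and Hbb-bs between -0.80 and 0.19 (above 0 without PR3 KO 1 or PR3 KO 3). The cause was not tested.

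The counts for the lists under other settings were added after seeing the data. Scaling gave 3 higher among other basement membrane components (4 with the block), 2 lower receptors (2 with the block), 2 higher collagen enzymes (2 with the block), and 1 lower and 4 higher heparan sulfate enzymes (1 and 3 with the block). Of the 12340 genes tested then, 2742 were lower and 3158 higher (2673 and 3255 with the block). Equal sums gave 0 higher receptors, 15 lower collagen enzymes and 8 lower heparan sulfate enzymes, while 6664 of all 13251 genes tested then were lower and 928 higher. A mean of 5 FPKM, which tests fewer genes, gave 0 higher other components, 1 higher receptor and 1 lower heparan sulfate enzyme, and with neither trend nor robust moderation 2 other components were higher. All genes gave 3656 lower and 1283 higher of 9022 with the former, and 5133 and 1438 of 12388 with the latter. Leaving out 1 library gave 1 to 2 higher other components (2 without WT 1), 3 to 7 lower and 1 to 2 higher receptors, 5 to 10 lower and 0 to 1 higher collagen enzymes (1 without WT 2), and 2 to 5 lower heparan sulfate enzymes. Counts over all 12244 to 12468 genes tested then varied as well, from 3873 to 4731 lower and from 916 to 1518 higher. The 7 ratios moved by less than their spread between libraries with a pseudocount of 1 and without any 1 library. Col4a5 gave no value with the filter at a mean of 5 FPKM.

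Deviations of same-numbered libraries correlated over genes at 0.07, 0.27 and -0.09 for numbers 1, 2 and 3. Those of differently numbered libraries ranged from -0.26 to 0.32. Same-numbered libraries thus did not stand out, and the numbers were not taken as pairs, though this does not exclude a pairing. The replicate block left 5 members lower (Col4a1 at -0.78, limma adjusted p = 0.00409) and gave 8 lower heparan sulfate enzymes, and Ren1 passed under it (-0.68, limma adjusted p = 0.00415). With the block, 5143 of all 12388 tested genes were lower and 1550 higher. Without counts, the precision of single values is known only from 3 libraries a genotype.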
